A study of Mus musculus with 16 samples.

Results

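Srebf1, Acly, Acaca, Fasn, Elovl6, Elovl5, Elovl3, Scd1, Scd2 and Scd3 encode a transcription factor and 9 enzymes of fatty acid synthesis, chain elongation and desaturation. They were taken by symbol, 10 of the 26357 genes in a table of RNA-seq counts from mice, and all 10 were among the 14671 genes with enough counts to test. The 16 libraries came from mice given IL-23, a cytokine that maintains IL-17-producing lymphocytes, or its vehicle. In each arm a drug vehicle that held 0 mpk of compound had been dosed by mouth (oral) or into the peritoneum (intraperitoneal). The 4 groups were IL-23 with the oral vehicle, vehicle with the oral vehicle, IL-23 with the intraperitoneal vehicle and vehicle with the intraperitoneal vehicle, with n = 4 libraries each. All groups therefore received a drug vehicle, and none received compound. Strain, sex, age, tissue and time of harvest are not given in the labels. Libraries are named by the number that opens their title. Nothing in the labels says that the libraries of a group come from separate animals, so p-values measure only the spread between these samples.

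Fatty acids are built in the cytosol from citrate. ATP citrate lyase (Acly) releases acetyl-CoA, acetyl-CoA carboxylase 1 (Acaca) turns it into malonyl-CoA, and fatty acid synthase (Fasn) joins these units into palmitate. Elongases (Elovl genes) lengthen acyl-CoAs in the endoplasmic reticulum, and stearoyl-CoA desaturases (Scd genes) place a first double bond in them. Srebf1 encodes SREBP-1, the factor best known for switching on these genes. In skin, sebaceous glands and fat make much of this lipid, Scd1 loss leaves mice with shrunken sebaceous glands, and Elovl3 loss disturbs sebum and hair.

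Counts per library summed to 6381990 to 10078531 for IL-23 (n = 8) and to 7159325 to 14432930 for vehicle (n = 8). The agents separated without overlap on the first principal component (71.2% of the variance), and IL-23 intraperitoneal library 28 stood apart on the second (-62.5, against -14.1 to 20.9 in the others). Levels below are CPM, counts scaled to library size, after TMM scaling, which sets the libraries' typical gene level. Fold changes are IL-23 against vehicle on the log2 scale, given with a standard error, and the threshold for a call was an adjusted p under 0.05. Reads per gene in bulk tissue cannot tell fewer cells of a type from less RNA per cell.

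Within each route, 7 of the 10 genes fell with IL-23, 0 rose and 3 did not pass the test. Fasn, Elovl6, Elovl5, Scd1, Scd2, Acly and Srebf1 were the 7 that fell, the same in both routes, whereas Acaca, Elovl3 and Scd3 were called in neither. Over all genes tested 29.2% were called higher in oral and 30.8% in intraperitoneal mice. Genes called lower made up 34.0% in oral mice and 30.9% in intraperitoneal mice, and 27.4% in both. A total of 63.3% (oral) and 61.7% (intraperitoneal) of genes were called in either direction, so a call was common in these libraries. The median log2 fold change of the 10 genes was -0.66 in oral and -0.55 in intraperitoneal mice, against -0.06 and -0.02 over all genes tested. Elovl6, Scd1 and Fasn were called lower by at least 2-fold in both routes, as were 9.38% of all genes. In oral mice all 7 genes had every IL-23 library below every vehicle library (31.8% of all genes did), and in intraperitoneal mice 6 of the 7 did (25.9% of all genes), Scd2 being the exception.

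**Figure D1:**
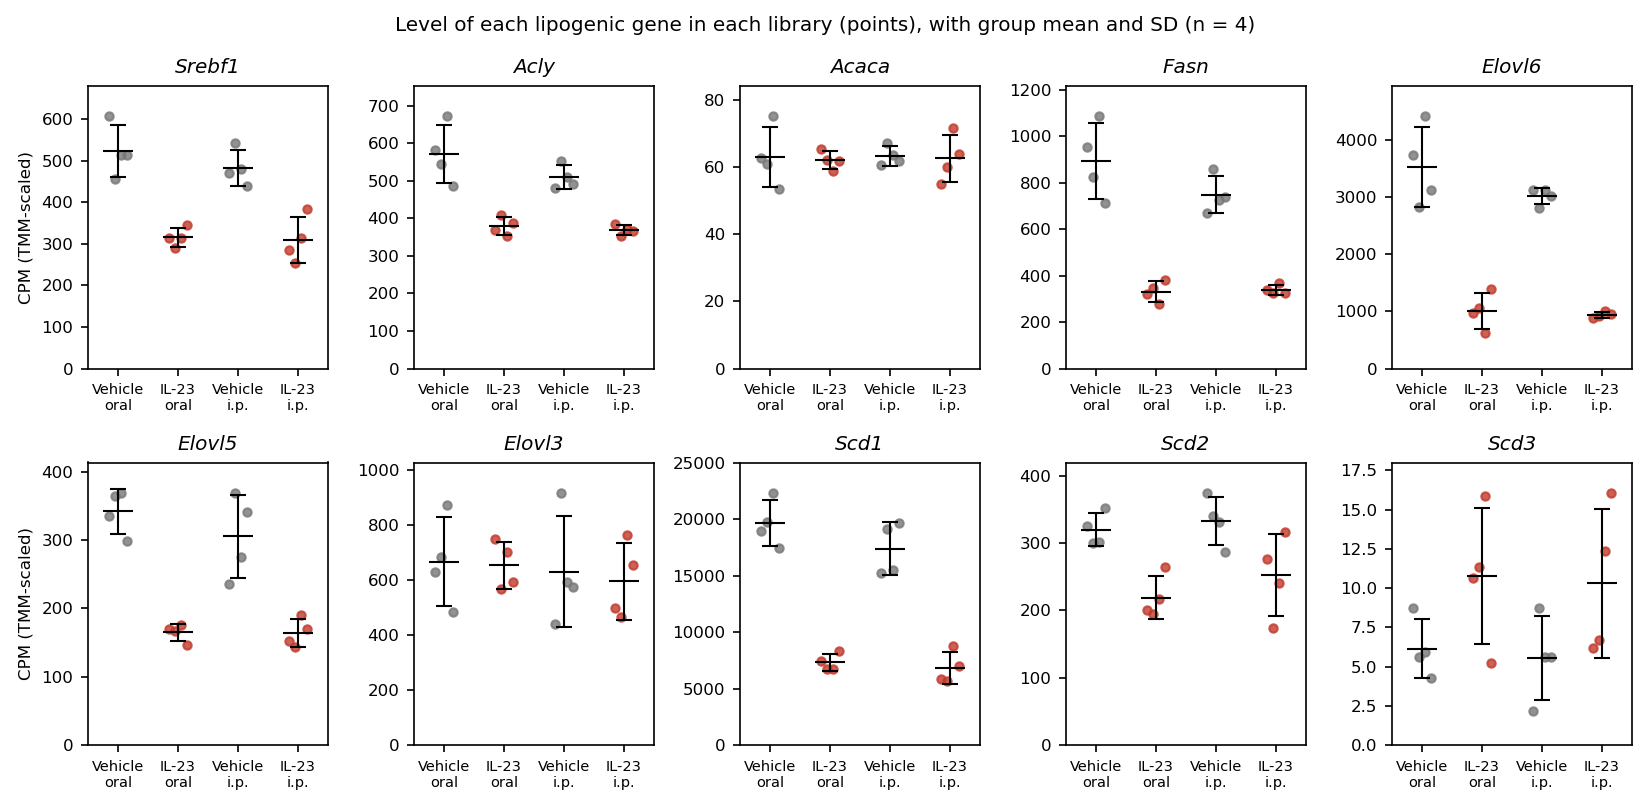
Each panel plots 1 gene, with CPM on a linear axis that starts at 0, 4 libraries per group as points, and the group mean with its SD. Scd1 libraries lie at 15244 CPM or more with vehicle and at 8769 CPM or less with IL-23. The groups of Acaca, Elovl3 and Scd3 overlap in both routes, and those of Scd2 overlap in the intraperitoneal route.

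Srebf1 (gene ID 20787, chromosome 11, 60199084 to 60224186) was the only transcription factor of the set. In libraries 4, 27, 33 and 51 of the vehicle oral group it stood at 607, 455, 514 and 513 CPM, and in libraries 14, 24, 26 and 68 of the IL-23 oral group at 313, 291, 313 and 345 CPM. Vehicle intraperitoneal libraries 49, 50, 59 and 67 held 470.0, 543, 479.7 and 439 CPM, and IL-23 intraperitoneal libraries 25, 28, 31 and 61 held 284, 254, 314 and 384 CPM. The same order of libraries is used for each gene below. No IL-23 library reached the lowest vehicle library of its route. On the log2 scale Srebf1 fell by 0.73 ± 0.12 (adjusted p = 4.5e-05) in oral mice and fell by 0.64 ± 0.12 (adjusted p = 0.000168) in intraperitoneal mice, by edgeR's quasi-likelihood test with Benjamini-Hochberg adjustment over all genes, as for every adjusted p of a single gene below. Among all tested genes, 20.3% in oral and 20.7% in intraperitoneal mice had a lower fold change. Counts per gene do not separate SREBP-1a from SREBP-1c, the isoforms made from different first exons of this gene.

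The enzymes of palmitate synthesis did not move by the same amount. Acly (gene ID 104112, chromosome 11, 100476352 to 100528000), which supplies acetyl-CoA, ranged over 486 to 672 CPM in vehicle and 354 to 408 CPM in IL-23 oral libraries, and over 481 to 553 and 354 to 384 CPM in the intraperitoneal groups. The ranges did not overlap in either route, and Acly fell by 0.59 ± 0.09 (adjusted p = 2.53e-05) and fell by 0.46 ± 0.09 (adjusted p = 0.000292) on the log2 scale in oral and intraperitoneal mice.

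Fasn (gene ID 14104, chromosome 11, 120805958 to 120825166) stood at 952, 825, 1085 and 710.0 CPM in vehicle oral libraries and at 319.7, 347, 275 and 382 CPM in IL-23 oral libraries. In the intraperitoneal groups it stood at 671, 860.2, 724 and 736 CPM with vehicle and at 337, 326, 369.8 and 323 CPM with IL-23. Library 26 was the lowest of the IL-23 libraries and library 68 the highest, and each of the 8 lay below every vehicle library. The fold change was 0.371-fold (95% interval 0.306 to 0.449) in oral mice, where Fasn fell by 1.43 ± 0.13 (adjusted p = 1.05e-07) on the log2 scale, and 0.453-fold (95% interval 0.375 to 0.549) in intraperitoneal mice, where it fell by 1.14 ± 0.13 (adjusted p = 1.25e-06).

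Acaca (gene ID 107476, chromosome 11, 84129635 to 84401651), the carboxylase between these enzymes, was not called. It stood at 62.8, 61.0, 75.2 and 53.5 CPM in vehicle oral libraries and at 65.5, 62.1, 58.9 and 61.8 CPM in IL-23 oral libraries. The intraperitoneal groups held 60.8, 67.3, 63.6 and 61.8 CPM with vehicle and 55.1, 60.1, 71.7 and 64.0 CPM with IL-23. The groups overlapped in both routes, with log2 fold changes of -0.03 ± 0.10 (95% interval -0.24 to 0.18, adjusted p = 0.805) and -0.01 ± 0.10 (-0.22 to 0.20, adjusted p = 0.924), whose sign was positive with RLE scaling. With TMM scaling the intervals exclude a fall as large as that of Fasn. They leave room for a fall of up to 0.24 or a rise of up to 0.20 on the log2 scale. With plain library size scaling the log2 fold changes were -0.22 (adjusted p = 0.063) in oral and -0.22 (adjusted p = 0.064) in intraperitoneal mice, also not called.

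Promoters of 4 genes that fell and of Scd3, which was not called, are shown because SREBP-1 works through short motifs upstream of its targets, together with the factors NF-Y and Sp1. Of the 10 genes, 7 were matched in RefSeq's promoter table for GRCm38.p6, Srebf1 with 3 start sites, which gives 9 windows. Elovl3, Scd1 and Scd2 were not matched. The windows are the 250 bases before a start site, read 5′ to 3′ on the gene's strand, and capitals mark matches on either strand to CCAAT (the NF-Y box), GGGCGG (the Sp1 GC box) or CACGTG (an E-box).
Fasn promoter, chr11:120824548-120824797 (- strand): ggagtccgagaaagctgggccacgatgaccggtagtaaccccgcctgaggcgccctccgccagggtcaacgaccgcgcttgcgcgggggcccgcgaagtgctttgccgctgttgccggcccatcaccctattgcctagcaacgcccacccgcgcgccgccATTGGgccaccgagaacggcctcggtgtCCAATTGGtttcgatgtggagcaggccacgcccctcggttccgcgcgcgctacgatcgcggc
Acly promoter, chr11:100528001-100528250 (- strand): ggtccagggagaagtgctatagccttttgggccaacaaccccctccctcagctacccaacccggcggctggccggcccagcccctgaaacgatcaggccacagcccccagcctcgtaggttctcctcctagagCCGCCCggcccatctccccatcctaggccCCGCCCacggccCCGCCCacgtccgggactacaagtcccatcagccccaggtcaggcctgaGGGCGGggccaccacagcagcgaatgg
Elovl6 promoter, chr3:129532136-129532385 (+ strand): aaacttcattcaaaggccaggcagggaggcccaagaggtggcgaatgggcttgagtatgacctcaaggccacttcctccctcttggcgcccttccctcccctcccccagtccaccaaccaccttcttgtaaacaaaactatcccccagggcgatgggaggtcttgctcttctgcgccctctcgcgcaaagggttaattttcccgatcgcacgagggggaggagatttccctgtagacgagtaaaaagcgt
Elovl5 promoter, chr9:77917115-77917364 (+ strand): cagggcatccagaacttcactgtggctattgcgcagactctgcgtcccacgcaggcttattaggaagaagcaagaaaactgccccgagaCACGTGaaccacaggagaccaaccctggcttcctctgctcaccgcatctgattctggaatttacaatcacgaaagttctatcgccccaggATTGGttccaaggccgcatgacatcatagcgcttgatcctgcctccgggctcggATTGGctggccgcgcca
Scd3 promoter, chr19:44203038-44203287 (+ strand): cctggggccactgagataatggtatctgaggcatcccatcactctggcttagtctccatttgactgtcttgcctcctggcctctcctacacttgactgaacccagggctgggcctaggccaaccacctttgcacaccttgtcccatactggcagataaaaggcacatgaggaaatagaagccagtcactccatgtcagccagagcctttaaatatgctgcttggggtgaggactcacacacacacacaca
Fasn held 3 CCAAT matches, 2 of which overlap each other on opposite strands, and Acly held 4 GC boxes. Elovl5 held 2 CCAAT matches and 1 E-box, while the windows of Elovl6, Scd3 and Acaca held none of these motifs. The Acaca window, 84195188 to 84195437 on chromosome 11, lies inside the gene, which starts at 84129635 on the same strand. Bases before position 84129635 were not searched, so whether a promoter there holds these motifs was not tested. CCAAT was found in 4 of the 9 windows and in 33.8% of the table's 32851 windows, and GGGCGG in 3 of the 9 and in 32.7%. The E-box was found in 6.02% of all windows. The sterol regulatory element, searched as TCACNCCAC on both strands, was in none of the 9 and in 1.05% of all windows. These are letter matches in 1 window per start site, and motifs outside it were not searched.

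Among the elongases, Elovl6 fell most of all 10 genes in both routes. Elovl6 (gene ID 170439, chromosome 3, 129532386 to 129638495) lengthens palmitate to stearate. It stood at 3727, 2832, 4410.0 and 3116 CPM in vehicle oral libraries and at 978, 1050.0, 625 and 1385 CPM in IL-23 oral libraries. The intraperitoneal groups held 3125, 2815, 3124 and 3010.0 CPM with vehicle and 883, 921, 1010.0 and 948 CPM with IL-23. Library 26 was the lowest and library 68 the highest of the IL-23 libraries, and both lay below every vehicle library. The fold change was 0.287-fold (95% interval 0.217 to 0.378) in oral and 0.312-fold (95% interval 0.237 to 0.41) in intraperitoneal mice. On the log2 scale Elovl6 fell by 1.80 ± 0.18 (adjusted p = 4.11e-07) and fell by 1.68 ± 0.18 (adjusted p = 1.03e-06), and 2.68% and 3.05% of tested genes had a lower fold change. By count it ranked between place 7 and 14 of all genes in the vehicle libraries and between place 46 and 159 in the IL-23 libraries.

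Elovl5 (gene ID 68801, chromosome 9, 77917365 to 77984519), an elongase of polyunsaturated fatty acids, ranged over 298 to 369 CPM in vehicle and 146 to 175 CPM in IL-23 oral libraries. In the intraperitoneal groups the ranges were 236 to 369 CPM with vehicle and 144 to 189.9 CPM with IL-23, again without overlap. Elovl5 fell by 1.05 ± 0.13 (adjusted p = 2.49e-06) and fell by 0.90 ± 0.13 (adjusted p = 1.54e-05) on the log2 scale in oral and intraperitoneal mice.

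Elovl3 (gene ID 12686, chromosome 19, 46131897 to 46135694), an elongase of saturated and monounsaturated fatty acids in sebaceous glands and brown fat, kept overlapping levels. It stood at 627, 684, 870.3 and 484 CPM in vehicle oral libraries and at 747, 568, 701 and 593 CPM in IL-23 oral libraries. The intraperitoneal groups held 438, 916, 592 and 574 CPM with vehicle and 499, 464, 763 and 653 CPM with IL-23. Libraries 33 and 50 were the highest and library 49 the lowest, all of them vehicle libraries. The log2 fold changes were -0.03 ± 0.21 (95% interval -0.49 to 0.43, adjusted p = 0.906) and -0.08 ± 0.21 (-0.54 to 0.38, adjusted p = 0.755). The spread within groups was wide for this gene, with a coefficient of variation of 32.2% in vehicle intraperitoneal libraries against 4.84% for Elovl6, and the oral value turned positive with RLE scaling.

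The 3 desaturase genes lie in 1 cluster on chromosome 19. Scd1 (gene ID 20249, 44394450 to 44407709) had the highest count of all genes in each of the 8 vehicle libraries, and ranked between place 7 and 12 in the IL-23 libraries. It stood at 18963, 19737, 22358 and 17489 CPM in vehicle oral libraries and at 7415, 6773, 6770.0 and 8376 CPM in IL-23 oral libraries. The intraperitoneal groups held 15244, 19117, 15489 and 19709 CPM with vehicle and 5824, 5692, 8769 and 7014 CPM with IL-23. The highest IL-23 library, 31, lay far below the lowest vehicle library, 49. The Scd1 share of all counts was 1.67% to 2.32% in vehicle and 0.494% to 0.832% in IL-23 libraries. The fold change was 0.373-fold (95% interval 0.297 to 0.469) in oral and 0.392-fold (95% interval 0.313 to 0.493) in intraperitoneal mice. On the log2 scale Scd1 fell by 1.42 ± 0.15 (adjusted p = 6.48e-07) and fell by 1.35 ± 0.15 (adjusted p = 1.39e-06).

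Scd2 (gene ID 20250, 44293676 to 44306864), the isoform of brain, nerve and immature skin, changed less. It stood at 326, 301, 302 and 352 CPM in vehicle oral libraries and at 200.3, 194, 216 and 264 CPM in IL-23 oral libraries, which did not overlap. The intraperitoneal groups held 375, 340.0, 331 and 288 CPM with vehicle and 277, 174, 241 and 317 CPM with IL-23, and library 61 of the IL-23 group lay above vehicle library 67. Scd2 fell by 0.55 ± 0.15 (adjusted p = 0.00344) on the log2 scale in oral mice and fell by 0.40 ± 0.14 (adjusted p = 0.0233) in intraperitoneal mice. The intraperitoneal call was lost without IL-23 library 28 (log2 fold change -0.24, adjusted p = 0.0811), without IL-23 library 31 (-0.38, adjusted p = 0.0548) or without vehicle library 49 (-0.34, adjusted p = 0.073). Over all alternatives to this value the adjusted p ran from 0.00102 to 0.0811.

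Scd3 (gene ID 30049, 44203288 to 44244016), an isoform known from sebaceous and related glands, was rare and was not called. It stood at 8.75, 5.60, 5.93 and 4.26 CPM in vehicle oral libraries and at 10.7, 11.3, 15.9 and 5.21 CPM in IL-23 oral libraries. The intraperitoneal groups held 2.16, 8.71, 5.64 and 5.60 CPM with vehicle and 6.16, 6.69, 12.4 and 16.1 CPM with IL-23. These levels rest on 33 to 110 counts per vehicle library and 38 to 125 counts per IL-23 library. The groups overlapped in both routes, and the log2 fold changes of 0.80 ± 0.39 (adjusted p = 0.0878) and 0.93 ± 0.40 (adjusted p = 0.0534) did not pass the threshold. The 95% intervals, which are not adjusted for the number of genes, were -0.06 to 1.66 and 0.06 to 1.81. DESeq2 called both as higher (0.85, adjusted p = 0.0489, and 0.94, adjusted p = 0.0299), so the side of the threshold depended on the tool. It also depended on single libraries: without IL-23 library 68 the oral value was called (1.04, adjusted p = 0.0298), and the intraperitoneal value was called without 1 of IL-23 libraries 25, 28, 26 or 68 or vehicle library 50 (1.14, adjusted p = 0.0208, without library 28).

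**Figure D2:**
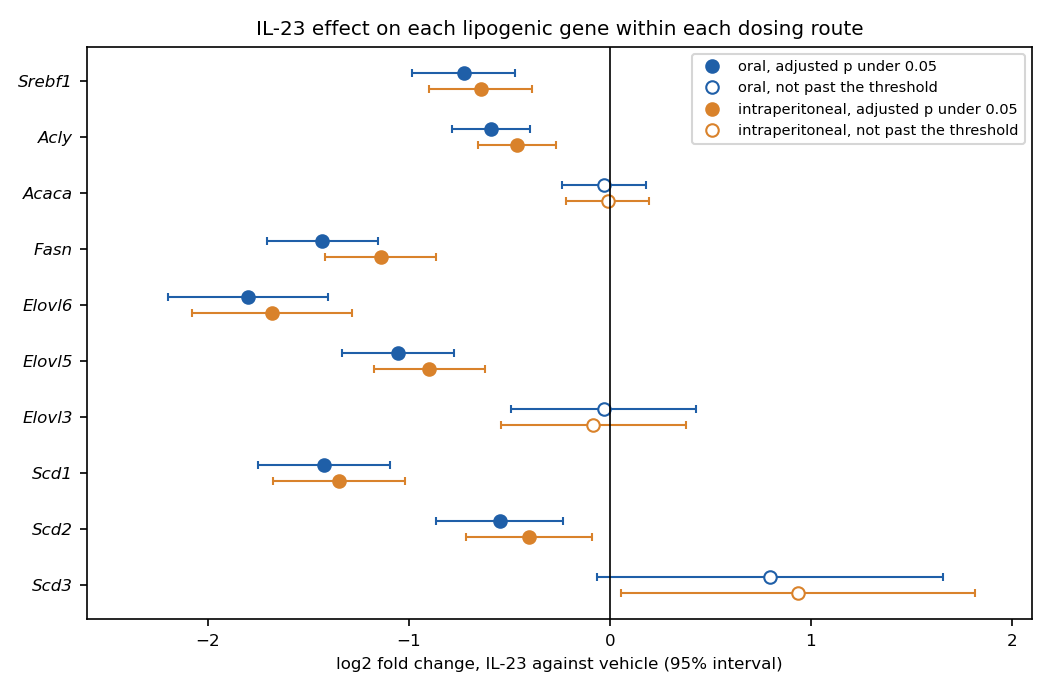
The log2 fold change of IL-23 against vehicle is shown for each gene within oral (blue) and intraperitoneal (orange) mice, with a 95% interval and filled points where the adjusted p was under 0.05. Elovl6 lies farthest to the left, at -1.80 and -1.68, and Scd3 alone lies to the right of 0 in both routes.

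The coding sequences of the desaturases show how alike these transcripts are, which bears on how far their reads can be told apart. In GENCODE's M21 annotation of GRCm38, Scd1 and Scd3 share 91.5% of 1068 aligned coding bases, with a longest identical run of 185 bases, and Scd1 and Scd2 share 90.4%, with a longest run of 147. The 90 coding bases that follow, counted from the start codon, are a stretch where all 3 are identical.
Scd1, coding bases 523 to 612: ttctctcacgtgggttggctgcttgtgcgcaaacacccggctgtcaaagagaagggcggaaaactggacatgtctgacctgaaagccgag
Scd2, coding bases 532 to 621: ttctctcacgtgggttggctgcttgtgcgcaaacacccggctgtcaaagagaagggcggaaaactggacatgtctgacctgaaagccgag
Scd3, coding bases 535 to 624: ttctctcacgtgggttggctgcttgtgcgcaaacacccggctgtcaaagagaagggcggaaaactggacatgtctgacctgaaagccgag
A second stretch of 90 bases is the one in which Scd1 and Scd3 differ most, and it crosses an exon junction. Capitals mark the bases that differ from Scd1, 11 in Scd2 and 20 in Scd3.
Scd1, coding bases 292 to 381: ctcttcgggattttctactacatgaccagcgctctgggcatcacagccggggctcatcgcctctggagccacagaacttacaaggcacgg
Scd2, coding bases 301 to 390: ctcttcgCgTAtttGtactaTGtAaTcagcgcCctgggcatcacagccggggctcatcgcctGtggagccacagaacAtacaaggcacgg
Scd3, coding bases 304 to 393: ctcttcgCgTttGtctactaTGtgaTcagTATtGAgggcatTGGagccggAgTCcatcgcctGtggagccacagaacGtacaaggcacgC
Over whole transcripts, 4.77% of the 50-base words of Scd3 also occur in Scd1, and 2.66% of those of Scd2 do. Scd1 had 95.4% to 98.6% of the counts of the 4 Scd genes in every library, so the counts of Scd3 and Scd2 could include reads of Scd1, and single values of Scd3 are uncertain for that reason. Scd4, the remaining gene of the cluster, had 9 to 31 counts summed over the 4 libraries of a group and was not tested.

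Ratios of 2 genes within a library do not depend on how libraries are scaled, so they show whether 2 genes moved by different amounts. In all, 6 ratios were tested in each route, 12 over both, with a 2-sided exact permutation test of 4 against 4 libraries, whose smallest possible p is 0.0286, and Benjamini-Hochberg adjustment over the 12. Of these, 9 passed, all at that smallest p (adjusted p = 0.0381).

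Acaca counts were 6.60% to 7.55% of Fasn counts in vehicle oral libraries and 16.2% to 21.4% in IL-23 oral libraries, a 2.65-fold difference (exact p = 0.0286, adjusted p = 0.0381, higher in 4 of 4 libraries). In intraperitoneal mice the shares were 7.83% to 9.06% and 16.4% to 19.8%, 2.17-fold apart with the same exact p. The carboxylase gene therefore stood higher relative to the synthase gene in every IL-23 library of either route. Scd1 and Fasn, by contrast, kept their ratio within the spread of the libraries. There were 19.9 to 24.6 Scd1 counts per Fasn count in vehicle oral and 19.5 to 24.6 in IL-23 oral libraries (exact p = 0.971), and 21.4 to 26.8 and 17.3 to 23.7 in the intraperitoneal groups (exact p = 0.229, adjusted p = 0.249).

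Among the elongases, Elovl3 counts were 15.5% to 24.2% of Elovl6 counts in vehicle oral and 42.8% to 112% in IL-23 oral libraries (3.55-fold, exact p = 0.0286, adjusted p = 0.0381). The intraperitoneal shares were 14.0% to 32.5% and 50.4% to 75.6% (3.08-fold, the same exact p). Elovl5 rose relative to Elovl6 in intraperitoneal mice (1.74-fold, exact p = 0.0286, adjusted p = 0.0381), while in oral mice the groups overlapped (1.72-fold, exact p = 0.0571, adjusted p = 0.0686).

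Among the desaturases, Scd2 counts went from 1.35% to 2.01% of Scd1 counts in vehicle oral to 2.70% to 3.20% in IL-23 oral libraries (1.82-fold), and from 1.46% to 2.46% to 2.75% to 4.76% in the intraperitoneal groups (1.91-fold). Scd3 counts went from 0.0246% to 0.0463% of Scd1 counts to 0.0628% to 0.235% in oral mice (4.51-fold), and from 0.0144% to 0.0459% to 0.107% to 0.230% in intraperitoneal mice (4.95-fold). None of these 4 pairs of groups overlapped (exact p = 0.0286 each, adjusted p = 0.0381). A ratio shows that 2 genes changed unequally and not which of them moved.

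**Figure D3:**
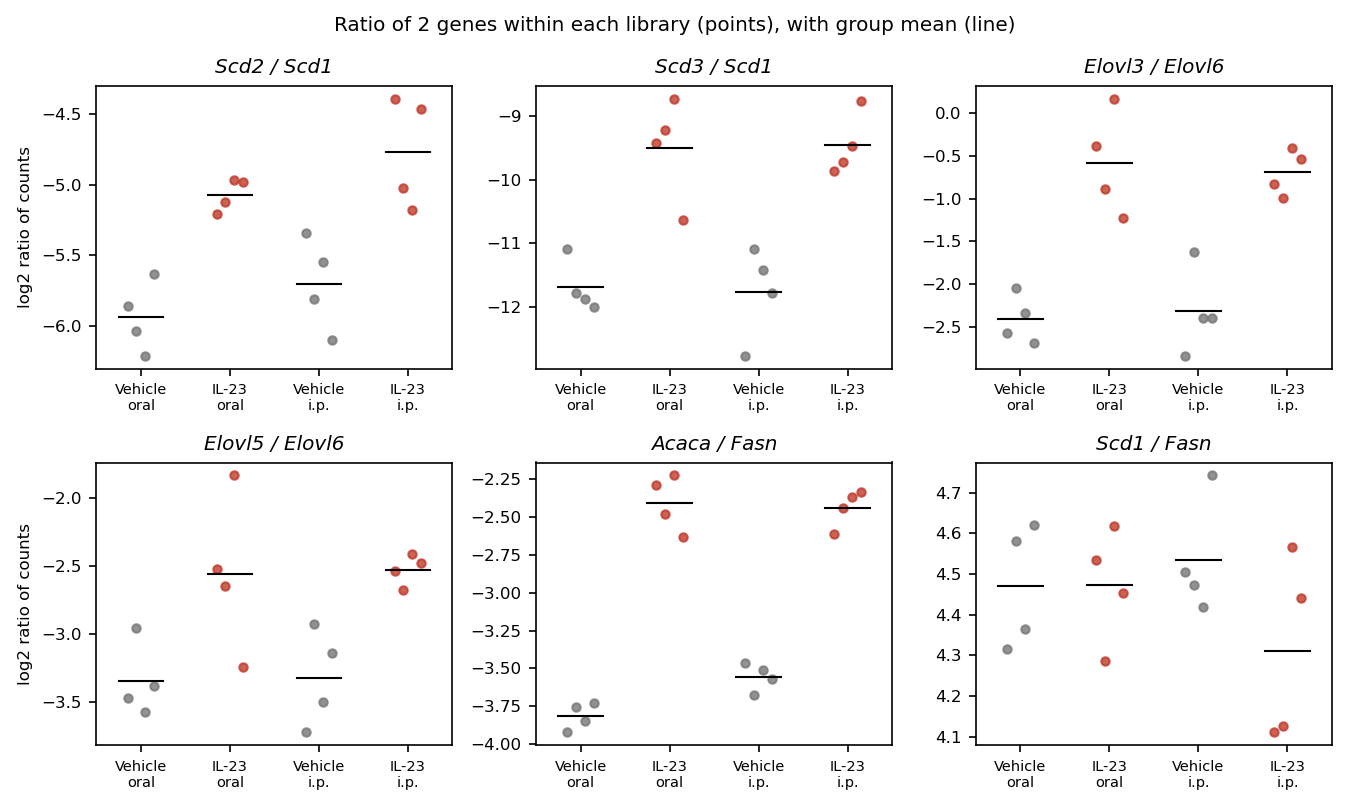
Each panel plots the log2 ratio of the counts of 2 genes in each library (points) and the group mean (line), with a vertical axis fitted to the panel. IL-23 and vehicle groups are apart in both routes for Scd2/Scd1, Scd3/Scd1, Elovl3/Elovl6 and Acaca/Fasn, and overlap for Scd1/Fasn.

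The dosing route made no difference that passed the test for any of the 10 genes. In edgeR 0 of the 10 genes, and 0% of all genes, were called when the size of the IL-23 response was compared between routes, and 0 of the 10 genes had an unadjusted p under 0.05 (796 of all genes did). DESeq2 and limma-voom also called 0 of the 10, and over all genes they called 1 and 0. The largest difference was that of Fasn, whose fall was smaller in intraperitoneal mice by 0.29 ± 0.18 on the log2 scale (95% interval -0.09 to 0.67, adjusted p = 0.875). For Scd1 the difference was 0.07 ± 0.21 (-0.38 to 0.53) and for Elovl6 0.12 ± 0.25 (-0.43 to 0.67), so differences of up to 0.53 and 0.67 remain within the intervals. Between the vehicle groups alone, and between the IL-23 groups alone, intraperitoneal against oral, 0 of the 10 genes and 0% of all genes were called in edgeR, and again 0 of the 10 had an unadjusted p under 0.05. Of all genes, 1087 and 1874 did. DESeq2 and limma-voom called 0 of the 10 there too, and over all genes DESeq2 called 1 and 57 and limma-voom 0 and 0.

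Levels of different genes can be compared only per length, here as CPM per kilobase of a gene's merged exons in GENCODE M21. Over the 8 vehicle libraries Scd1 stood at 3784 ± 484 CPM per kilobase (SD, n = 8), Elovl6 at 508 ± 84.0 and Elovl3 at 328 ± 86.2. Acly (102 ± 12.2), Elovl5 (91.9 ± 14.0), Srebf1 (89.2 ± 9.65), Fasn (74.9 ± 12.9) and Scd2 (59.8 ± 5.36) followed, with ranges that overlapped from each to the next. Acaca (3.71 ± 0.36) and Scd3 (1.64 ± 0.61) were the lowest. The merged exons of Acaca span 17.1 kilobases, which lowers its value per length. Over the 8 IL-23 libraries Scd1 was still the highest at 1447 ± 223 CPM per kilobase, but Elovl3 (316 ± 56.3) stood above Elovl6 (152 ± 32.7) without overlap, whereas with vehicle the ranges of these elongases overlapped with Elovl6 the higher by mean. By mean, Scd2 (43.1 ± 8.83) and Fasn (30.6 ± 3.01) also changed places, as did Srebf1 (55.5 ± 6.99) and Elovl5 (46.7 ± 4.51), with overlapping ranges in each pair. Acaca (3.65 ± 0.29) and Scd3 (2.97 ± 1.19), which were apart with vehicle, overlapped.

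Other genes of the pathway were described from lists of related genes. As background, 34.0% of all genes in oral and 30.9% in intraperitoneal mice were called lower, and 29.2% and 30.8% higher. The medians of all genes were -0.06 and -0.02. Of 18 genes of fatty acid synthesis, activation and NADPH supply, 9 fell, 4 rose and 5 did not pass in each route. Their medians were -0.41 and -0.35 in oral and intraperitoneal mice. By the mean of both routes, the largest falls called in both were those of Thrsp, a lipogenic regulator also called Spot 14, Acsl6, an acyl-CoA synthetase, and Acacb, the mitochondrial acetyl-CoA carboxylase. In intraperitoneal mice Thrsp went from 6.95 ± 0.730 to 1.11 ± 0.824 CPM (SD, n = 4 each), and in oral mice Acsl6 went from 11.2 ± 2.30 to 2.86 ± 0.592 CPM and Acacb from 319.6 ± 62.8 to 143 ± 22.0 CPM. Their log2 fold changes were -2.85, -1.96 and -1.16 in oral and -2.62, -1.79 and -1.42 in intraperitoneal mice. Acacb thus fell where its cytosolic relative Acaca was not called. Dbi, the acyl-CoA binding protein, rose from 257 ± 16.2 to 406 ± 37.5 CPM in oral mice, and the NADPH-producing enzymes G6pdx and Pgd of the pentose phosphate pathway rose by 0.47 and 0.25 on the log2 scale there and by 0.51 and 0.36 in intraperitoneal mice.

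The other desaturases moved in both directions. The background was again 34.0% and 30.9% of all genes called lower and 29.2% and 30.8% higher in oral and intraperitoneal mice. Of 7 desaturases listed, 6 were tested, and 4 fell and 2 rose in each route. Those that fell were the fatty acyl desaturases Fads1 and Fads2, which act on polyunsaturated chains, and their relatives Fads3 and Fads6. Fads2 went from 7.42 ± 1.71 to 2.47 ± 1.09 CPM in oral mice and from 6.15 ± 0.887 to 2.54 ± 1.37 CPM in intraperitoneal mice, and Fads6 had log2 fold changes of -2.17 and -1.51. The 2 that rose act on sphingolipids: Degs1, the dihydroceramide desaturase, went from 232 ± 8.84 to 563 ± 47.7 CPM in oral mice, and Degs2, which also makes phytoceramide, from 4.34 ± 2.05 to 41.3 ± 9.29 CPM. In intraperitoneal mice Degs1 went from 245 ± 9.16 to 617 ± 76.0 CPM and Degs2 from 4.76 ± 1.99 to 37.1 ± 20.9 CPM. Degs1 log2 fold changes were 1.28 and 1.33, opposite in sign to those of Scd1 and Scd2.

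Of 10 other genes of the elongation machinery, 9 were tested, of which 3 fell, 2 rose and 4 did not pass in each route. Over all genes 34.0% and 30.9% were called lower and 29.2% and 30.8% higher in oral and intraperitoneal mice, so these counts were near the background. The elongases Elovl7 and Elovl1, which make very long saturated chains, rose, with Elovl1 going from 153 ± 17.4 to 399 ± 32.1 CPM in oral mice and from 184 ± 28.4 to 386 ± 132 CPM in intraperitoneal mice. Elovl7 went from 85.7 ± 10.6 to 242 ± 17.8 CPM in oral mice and from 119 ± 25.4 to 262 ± 56.9 CPM in intraperitoneal mice. Among the other enzymes of the elongation cycle, the ketoreductase Hsd17b12 and the dehydratases Hacd2 and Hacd3 fell, Hacd2 from 439 ± 60.2 to 207 ± 10.5 CPM in oral mice and from 399 ± 63.7 to 190.1 ± 31.2 CPM in intraperitoneal mice. Tecr, the reductase of the last step, did not pass (log2 fold changes -0.21, adjusted p = 0.189, and -0.12, adjusted p = 0.457), nor did the dehydratases Hacd1 (-0.09 and 0.35) and Hacd4 (-0.49 and 0.77) or the elongase Elovl4 (0.04 and -0.19). Elovl1 and Elovl7 thus moved opposite to Elovl6 and Elovl5.

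Of 20 genes that control SREBP or lipogenic transcription, 8 fell, 5 rose and 7 did not pass in oral mice, and 10 fell, 5 rose and 5 did not pass in intraperitoneal mice. The oral counts were near the background of 34.0% lower and 29.2% higher, and in intraperitoneal mice the background was 30.9% and 30.8%. Srebf2, which encodes the SREBP best known for cholesterol synthesis, rose from 254 ± 15.6 to 344 ± 12.4 CPM in oral mice and from 261 ± 22.9 to 369 ± 39.2 CPM in intraperitoneal mice, opposite to Srebf1. Mlxipl, which encodes the glucose-sensing factor ChREBP, fell in both routes (log2 fold changes -0.99 and -1.84), while its partner gene Mlx rose by 0.41 and 0.51. Prkaa2, a catalytic subunit of AMPK, the kinase that inhibits acetyl-CoA carboxylase, fell too (-1.20 and -1.04), as did Lpin1, a phosphatidate phosphatase (-1.21 and -0.92). Cebpb, a factor of adipocyte and inflammatory gene expression, rose by 1.09 and 0.73.

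**Figure D4:**
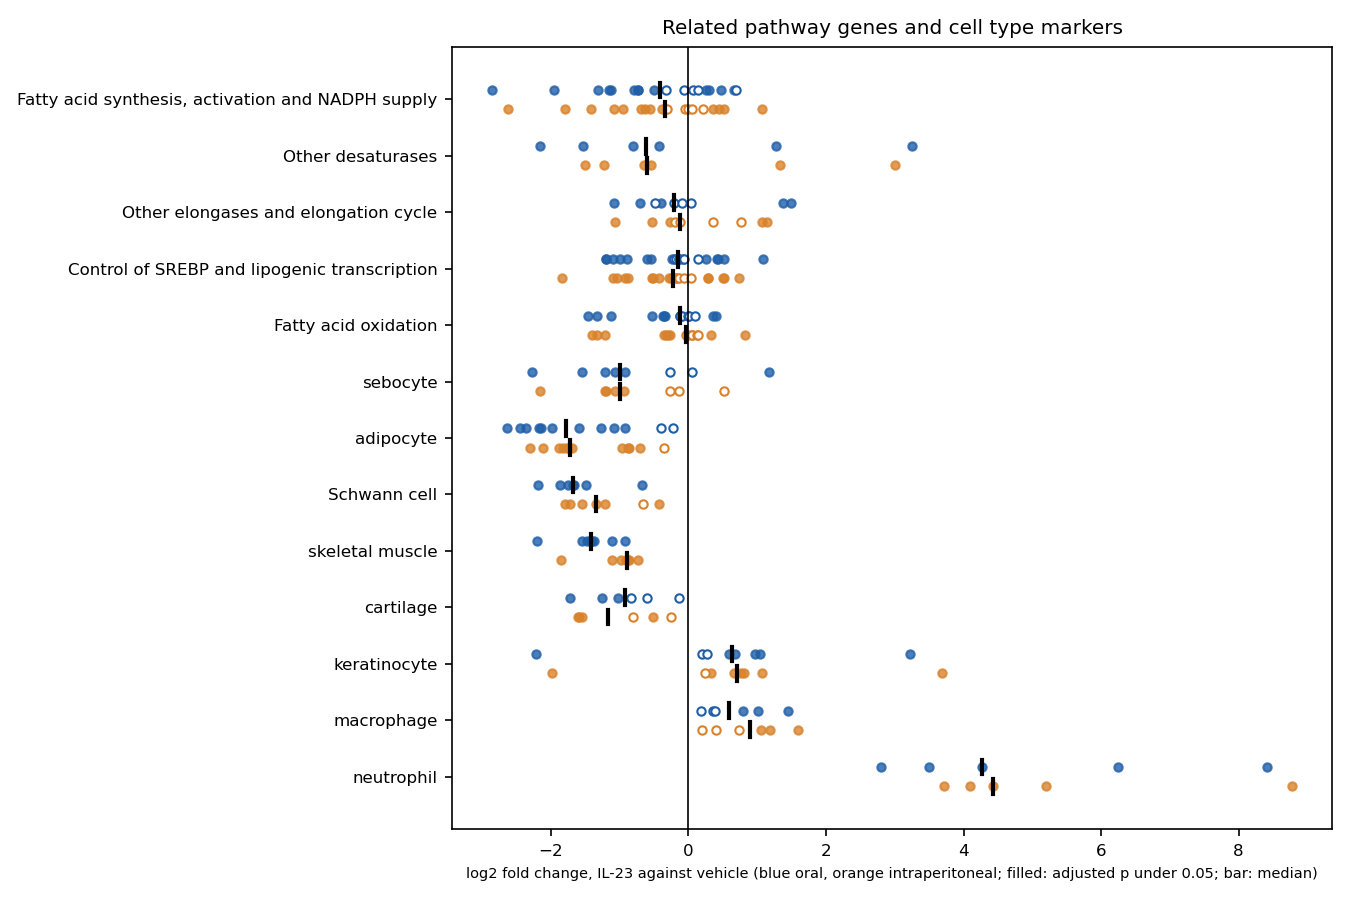
Each point is the log2 fold change of 1 gene, IL-23 against vehicle, in oral (blue) or intraperitoneal (orange) mice, grouped by list, filled where the adjusted p was under 0.05, with a bar at the list's median. Desaturases and elongases spread to both sides of 0, and the adipocyte, Schwann cell, skeletal muscle and cartilage lists lie to its left.

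Most markers of adipocytes, sebocytes, Schwann cells and skeletal muscle fell with IL-23. For comparison, 34.0% of all genes in oral and 30.9% in intraperitoneal mice were called lower. Of 12 adipocyte markers 10 fell in oral and 11 in intraperitoneal mice, and none rose. Lpl and Fabp4, the most abundant of them, had log2 fold changes of -1.08 and -1.27 in oral mice and -0.88 and -0.97 in intraperitoneal mice. The 12 adipocyte markers summed to 1001 to 1046 CPM in vehicle and 373 to 479.9 CPM in IL-23 oral libraries. In the intraperitoneal groups they summed to 721 to 958 CPM with vehicle and 384 to 502 CPM with IL-23. Of 8 sebocyte markers 5 fell in each route, among them Mc5r, Awat2 and Far2. Krt79 and Awat1 passed in neither route, and Dgat2l6 rose in oral mice (log2 fold change 1.18, adjusted p = 0.0107). In intraperitoneal mice Dgat2l6 had a log2 fold change of 0.51 (adjusted p = 0.231), and the difference between routes was not called. The sebocyte sum was 2523 to 3323 CPM in vehicle and 1618 to 2010.0 CPM in IL-23 oral libraries, and 2345 to 3318 and 1312 to 2041 CPM in the intraperitoneal groups. Schwann cell markers, of which 7 of 7 fell in oral and 6 of 7 in intraperitoneal mice, had sums of 555 to 849.7 CPM with vehicle and 211 to 327 CPM with IL-23. All 8 skeletal muscle markers fell in both routes, with sums of 2731 to 5984 CPM with vehicle and 1270 to 2434 CPM with IL-23. None of these lists had a marker at 0 in any group. The part that these cell types had in the falls of the 10 genes was not tested.

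Of 8 keratinocyte markers 5 rose in oral and 6 in intraperitoneal mice, and Krt15 fell in both. The shares of all genes were 29.2% and 30.8% called higher and 34.0% and 30.9% called lower in oral and intraperitoneal mice. All 5 tested neutrophil markers rose, from a sum of 12.5 to 59.8 CPM in vehicle libraries to 8915 to 13496 CPM in IL-23 libraries. Nearly all of that sum was S100a8, which activated keratinocytes also make, with means of 10879 CPM in IL-23 oral and 9688 CPM in IL-23 intraperitoneal libraries. The neutrophil receptor gene Cxcr2 went from 1.02 to 21.4 CPM in oral and from 1.47 to 23.6 CPM in intraperitoneal mice by mean. In the macrophage list 3 of 6 tested markers rose. In the cartilage list 3 of 6 tested markers fell in oral and 4 in intraperitoneal mice, and Matn1 was at 0 in both vehicle groups. Liver, another lipogenic tissue, left little trace: the 7 hepatocyte markers summed to 0.319 to 7.73 CPM, Fgb and Serpina1a were at 0 in every group, and the 2 that could be tested, Alb and Cyp2e1, fell in both routes.

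Genes whose profile over the 16 libraries was most like that of a member were found by the root mean square difference of log2 CPM, each gene centred on its own mean. Among the nearest to Scd1 were Cat (0.11), which encodes catalase, and Reep6 (0.13). Nearest to Elovl6 were Avpr1a (0.16), Tmem159 (0.17) and Tmem229a (0.19), and nearest to Srebf1 were Celsr1 (0.10), Phka2 (0.12) and Sh3pxd2a (0.13). Among the nearest to Elovl3 were Gm9944 (0.16) and Adtrp (0.18). Among the 10 genes themselves, Scd1 and Fasn were the closest pair (0.17) and Elovl6 and Scd3 the most distant (1.46). This measure describes these libraries and carries no test.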

How the data were processed

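Total RNA was measured in 16 mouse libraries, prepared with a stranded Illumina kit per the labels' protocols. The deposited values are raw counts per gene. The submitters' processing notes list FastQC, STAR 2.52, Subread 1.5.0 with featureCounts, and GRCm38. Not stated in the labels are the annotation release, the strand setting and what was done with multi-mapping reads. The members and lists were chosen with earlier results of these data known.

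The test was edgeR's quasi-likelihood test (edgeR 4.0.16, R 4.3.3) on all 16 libraries with 1 mean per group (12 residual degrees of freedom), after filterByExpr at a minimum count of 10 and TMM scaling. All 14671 genes tested entered the Benjamini-Hochberg adjustment, with 2-sided p-values and a threshold of 0.05. A standard error is the log2 fold change over the root of the F statistic, and 95% intervals use t with 12 degrees of freedom. Ratios add 0.5 to each count and were tested with scipy 1.17.1. Profiles use log2 CPM with a prior count of 2. Positions and promoters are RefSeq's for GRCm38.p6. The fit was tested on simulated data. Alternatives were RLE, upper-quartile and plain library size scaling, no count filter, a filter of 1 CPM in 4 libraries, DESeq2 1.42.0, limma-voom (limma 3.58.1), only the groups compared, and leaving out each library. Named genes were the 10 members, up to 3 rises and 3 falls per pathway list called in both routes (ranked by mean log2 fold change), and the 3 nearest profiles of 4 members, of which some are not reported here. Scd4, Fads3, Tecr, Hacd1, Hacd4 and Elovl4 were named outside this rule. Of each marker list the counts and sums are given, and markers named beside the most abundant ones were chosen after their values were seen.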

Additional observations from a re-analysis of the deposited data

How the results depend on the processing

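No paired analysis was possible because the 4 groups share no replicate number. The counts of the 10 genes called stayed within 1.5 times under all alternatives run, and the falls of Srebf1, Acly, Fasn, Elovl6, Elovl5, Scd1 and oral Scd2 kept their direction and their call. With plain library size scaling the median of all genes moved by -0.20 (oral) and -0.21 (intraperitoneal), and the share of calls that were higher went from 46.2% and 49.9% to 31.0% and 31.5%. The difference between routes was not run with only the groups compared.

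Values near 0 changed sign. Acaca was 0.0135 (oral) and 0.0118 (intraperitoneal) with RLE scaling, 0.0119 and 0.0129 with DESeq2, and 0.00928 in intraperitoneal mice with no count filter. Its difference between routes was -0.00171 with RLE, -0.0114 with upper-quartile and -0.00177 with plain library size scaling. Elovl3 in oral mice was 0.0117 with RLE, 0.012 with DESeq2 and 0.00051 with limma-voom. Leaving out 1 library at a time gave -0.0754 to 0.0700 (oral), -0.0814 to 0.0469 (intraperitoneal) and -0.0806 to 0.0732 (difference between routes) for Acaca, and -0.133 to 0.126, -0.223 to 0.156 and -0.206 to 0.185 for Elovl3. It gave differences between routes of -0.0361 to 0.155 for Srebf1, -0.0517 to 0.312 for Elovl6, -0.0723 to 0.142 for Scd1 and -0.153 to 0.426 for Scd3, and a log2 difference of -0.0492 to 0.0646 for Scd1/Fasn in oral mice.

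Scd2 in intraperitoneal mice was also not called with only the groups compared (adjusted p = 0.0599). Scd3 was called higher in oral mice with only the groups compared (0.81) and without IL-23 library 68 (1.04), and in intraperitoneal mice with RLE (0.96), no count filter (0.96) and limma-voom (1.07) and without 1 of libraries 25, 28, 26, 68 or 50, the values over all left-out libraries being 0.64 to 1.22. The cause was not tested. Of the 12 ratios 9 passed, 9 with 2 added to each count and 0 to 0 with 1 library left out. Ratios of the route that lost a library, at 3 against 4, cannot give an exact p under 0.0571, and those of the other route did not pass after adjustment over the 12. Scd3 counts of 33 to 125 per library limit its precision.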

Other observations

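Genes of fatty acid oxidation, which breaks down what the synthesis genes build, also moved in both directions. Of 16 listed, 15 were tested, and 7 fell, 2 rose and 6 did not pass in each route. Their medians were -0.13 and -0.04 in oral and intraperitoneal mice, against -0.06 and -0.02 over all genes. Of all genes, 34.0% and 30.9% were called lower and 29.2% and 30.8% higher, so calls in both directions were common. Ppara, which encodes the nuclear receptor that switches on oxidation genes, fell from 68.9 ± 2.30 to 27.4 ± 2.92 CPM in oral mice (SD, n = 4 each) and from 60.6 ± 9.80 to 24.0 ± 2.29 CPM in intraperitoneal mice. Ehhadh, a peroxisomal enzyme of oxidation, fell (log2 fold changes -1.46 and -1.21), as did Ppargc1a, a coactivator of mitochondrial genes (-1.13 and -1.40). The mitochondrial enzymes Acadl and Hadhb rose, Acadl from 199 ± 26.3 to 261 ± 0.579 CPM in oral mice and from 167 ± 18.7 to 294 ± 36.0 CPM in intraperitoneal mice, and Hadhb by 0.36 and 0.33 on the log2 scale.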
